A study of Mus musculus with 10 samples.

Results

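The 10 genes described here, Pdgfra apart, mark smooth muscle cells and pericytes, the contractile and supporting cells that wrap blood vessels and airways. They were Acta2, Myh11, Tagln, Cnn1, Des, Pdgfrb, Pdgfra, Notch3, Cspg4 and Rgs5, chosen by name with earlier results of these data known. They were 10 of the 19096 genes with a paired probe and 10 of the 15586 genes tested. Total RNA from 5 wild-type (WT) lungs and 5 lung squamous cell carcinomas (SCC) was measured on 10 Agilent mouse expression arrays, each carrying a single sample labelled with 1 dye. The WT group was whole lung of Lkb1f/f mice, and the SCC group was lung tumour of CCSPiCreLkb1f/f mice. Both groups were of strain B6.129, 13 months of age, untreated, and carried the floxed Lkb1 allele. In the SCC group an improved Cre recombinase driven by the club cell secretory protein promoter deletes Lkb1 in airway epithelium, so that smooth muscle cells and pericytes are not the cells the deletion was aimed at. Lkb1 itself is not analysed here. The labels do not say that every sample came from a different mouse, so p-values measure the spread between these samples. Whole lung was set against dissected tumour, and in such bulk RNA fewer cells of a type and less RNA per cell cannot be told apart.

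Mature smooth muscle cells contract through a myosin built from Myh11, which slides along filaments of smooth muscle actin, the product of Acta2. Tagln and Cnn1 encode proteins that bind these filaments, and Des encodes an intermediate filament that links them in all muscle types. Pericytes share some of these genes, depend on the PDGF receptor encoded by Pdgfrb and on Notch3, and carry the proteoglycan NG2 (Cspg4) and the signalling regulator Rgs5. In adult lung, Pdgfra is known chiefly as a fibroblast gene, and it is included here as the receptor paired with Pdgfrb.

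Many contractile genes are controlled by the serum response factor, which binds the CArG box, an element of 10 bases with a core of 6 A or T letters. RefSeq windows on GRCm38.p6, reaching from 250 bases before to 50 bases after a start site, were held for 7 of the 10 genes. Myh11, Tagln and Pdgfrb were not among them. None of the 7 windows held a full CArG box, against 1.63% of all 32851 windows. The Acta2 window held 2 near matches with at least 5 of the 6 core letters, starting 84 and 34 bases before the start site. At least 1 near match was in 9.98% of all windows and at least 2 were in 0.822%. The pattern reads alike on both strands, the 2 matches did not overlap, and the other 6 windows held none. The bases before the start site are printed for Acta2, whose near matches are in capitals, for Des, which fell in the tumours, and for Rgs5, which rose.
Acta2, chr19:34255374-34255623, minus strand: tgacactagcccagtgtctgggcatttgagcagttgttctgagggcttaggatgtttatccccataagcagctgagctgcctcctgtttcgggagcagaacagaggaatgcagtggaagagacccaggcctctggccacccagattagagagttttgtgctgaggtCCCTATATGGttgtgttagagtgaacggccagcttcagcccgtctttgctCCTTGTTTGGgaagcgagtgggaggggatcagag
Des, chr1:75360042-75360291, plus strand: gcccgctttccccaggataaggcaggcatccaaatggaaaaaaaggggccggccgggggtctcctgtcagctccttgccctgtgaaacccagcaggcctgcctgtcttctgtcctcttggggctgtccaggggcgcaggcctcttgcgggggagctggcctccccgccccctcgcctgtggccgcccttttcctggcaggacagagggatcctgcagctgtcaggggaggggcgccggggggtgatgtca
Rgs5, chr1:169655251-169655500, plus strand: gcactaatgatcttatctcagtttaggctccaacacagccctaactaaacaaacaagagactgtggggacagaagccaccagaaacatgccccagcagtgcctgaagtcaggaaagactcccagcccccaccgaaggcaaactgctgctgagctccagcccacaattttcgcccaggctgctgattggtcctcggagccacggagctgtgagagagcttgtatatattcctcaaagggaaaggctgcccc

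All values are log2 signals after quantile normalization, and a difference of 1 unit is 2-fold. A gene with several probes is represented by its brightest one, and levels of different probes are not set against each other. A gene was called when its limma adjusted p, over all tested probes, was below 0.05 and its difference was at least 2-fold. All 10 genes were well above background on all 10 arrays, and none was saturated. The comparison asks how genes of the vessel and airway wall differed between tumour and whole lung. Of the 10 genes, 4 were called lower in SCC (Pdgfra, Des, Cnn1 and Myh11) and 1 was called higher (Rgs5). Over all 15586 genes, 13.4% were called lower and 11.6% higher. By the adjusted p alone, 7 of the 10 fell and 1 rose, where 28.4% of all genes fell and 25.5% rose. The groups did not overlap, with SCC lower, for 6 of the 10 genes, where 22.5% of all genes were so separated. They did not overlap with SCC higher for 1 gene, where the share of all genes was 18.9%. The median difference of the 10 genes was -0.85, and that of all tested genes was -0.038.

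**Figure D1:**
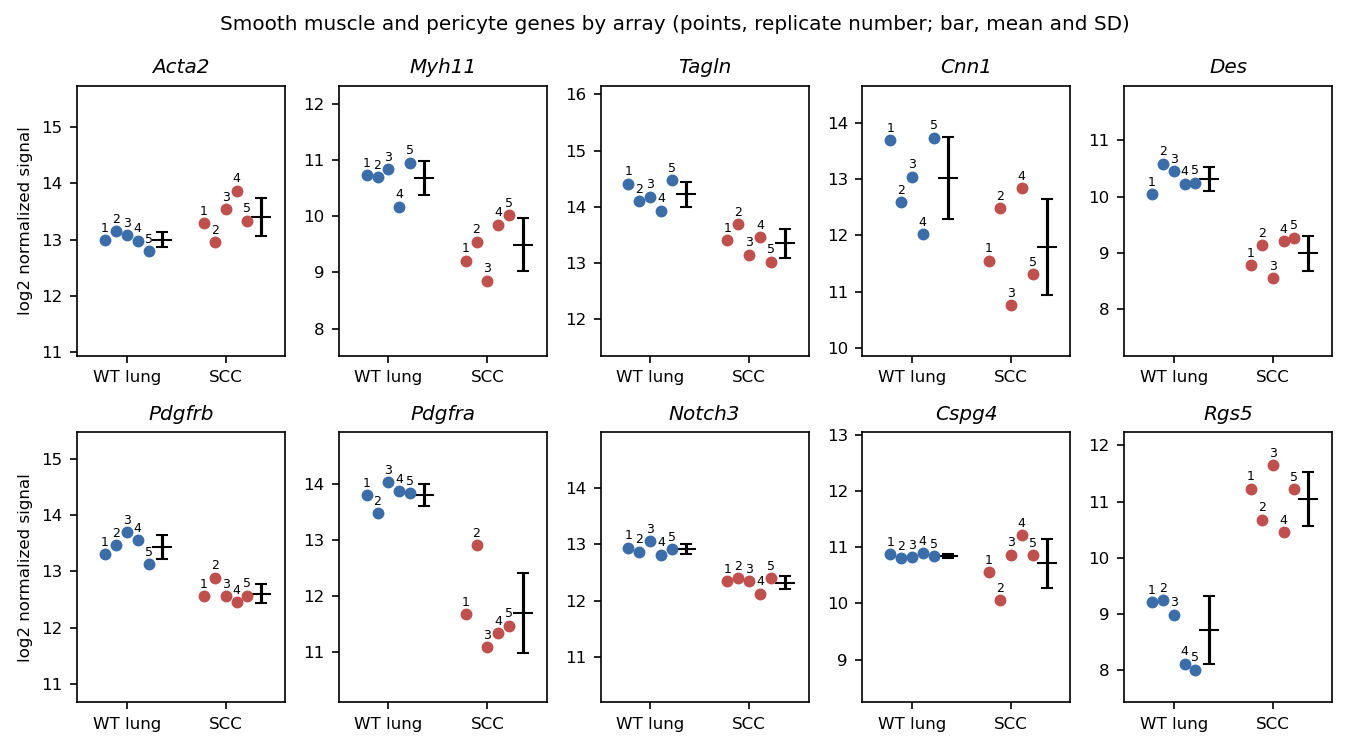
Log2 normalized signal of the brightest probe of each gene (y axis) on the 5 WT lung arrays (blue) and the 5 SCC arrays (red), with replicate numbers at the points and the mean and SD beside them. The y axes start at different levels but span the same number of log2 units. Pdgfra, Des and Myh11 lie lower in SCC without overlap, Rgs5 lies higher without overlap, and Cspg4 overlaps.

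The tumours carried squamous genes. The mean log2 signal of the squamous genes Krt5, Krt14 and Trp63 was between 5.63 and 6.14 on the WT arrays. In the tumours it was 14.02 for SCC replicate 2 and from 15.86 to 16.16 for the remaining 4. Of the lung genes, Ager fell by 2.21 (limma adjusted p 1.27e-05) and Sftpb fell by 0.86 (limma adjusted p 0.00954), Aqp5 rose by 0.64 (limma adjusted p 0.0233, with no value on WT replicate 1), and Sftpc had the same normalized value, 18.80, on all 5 WT arrays and on 2 SCC arrays, so its levels could not be ordered there. SCC replicate 5 also stood apart, with 90.2% of probes well above background against 71.0% to 74.5% on the other 9 arrays. Without SCC replicate 2, without SCC replicate 5 and without both, 9 of the 10 genes kept their direction, the exception being Cspg4.

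Myh11, the heavy chain of smooth muscle myosin, was at 10.72, 10.69, 10.84, 10.17 and 10.95 on WT replicates 1 to 5 and at 9.21, 9.55, 8.85, 9.85 and 10.02 on SCC replicates 1 to 5. Every tumour was below every lung, although SCC replicate 5 and WT replicate 4 came within a small distance of each other. The means were 10.67 ± 0.30 in WT and 9.49 ± 0.47 in SCC (SD, n = 5 each), and Myh11 fell by 1.18 (SE 0.24, 2.27-fold, limma adjusted p 0.0026). The exact two-sided permutation p was 0.00794, the smallest that 5 against 5 arrays can give.

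Tagln encodes transgelin (SM22), an actin-binding protein of smooth muscle. It was at 14.41, 14.10, 14.18, 13.94 and 14.48 in WT and at 13.41, 13.70, 13.15, 13.46 and 13.03 in SCC. The groups did not overlap, and the lowest lung, WT replicate 4, was the same as for Myh11. Tagln fell by 0.87 (SE 0.15, 1.83-fold, limma adjusted p 0.00129, exact permutation p 0.00794), which is under the 2-fold that a call required. A dimmer Tagln probe fell by 0.80 (limma adjusted p 0.00214).

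Cnn1, which encodes calponin 1, a protein that restrains the actin-activated myosin motor, was the most variable of the 10 genes within both groups. It was at 13.69, 12.59, 13.05, 12.03 and 13.74 in WT and at 11.55, 12.49, 10.76, 12.84 and 11.32 in SCC. WT replicate 4 was below SCC replicates 2 and 4, so the groups overlapped. The difference was -1.23 (SE 0.46, 2.34-fold) and passed narrowly (limma adjusted p 0.0493, exact permutation p 0.0476). Leaving out WT replicate 1, 2, 3 or 5, or SCC replicate 1, 3 or 5, ended the call, and over all 10 such sets the limma adjusted p ranged from 0.0236 to 0.11 and the difference from -1.49 to -0.97.

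Acta2 gave no single answer. Its brightest probe was at 13.00, 13.15, 13.08, 12.98 and 12.79 in WT and at 13.30, 12.96, 13.54, 13.87 and 13.34 in SCC. Of the tumours, only SCC replicate 2 lay within the range of the lungs. The probe differed by 0.40 and did not pass (SE 0.16, limma adjusted p 0.0629), with an exact permutation p of 0.0397. It passed without SCC replicate 2 (0.51, limma adjusted p 0.00942).

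A second Acta2 probe, spotted 10 times on each array, was at 13.54, 13.25, 13.50, 12.61 and 13.42 in WT and at 12.88, 12.95, 12.78, 13.00 and 12.74 in SCC. Here the tumours lay below all lungs but WT replicate 4, and the difference was -0.39 (limma adjusted p 0.0862). Its repeated spots differed on an array by an SD of 0.046 to 0.11. Of the other 2 probes, the brighter one differed by -0.55 (limma adjusted p 0.0649) and the dimmest by 0.21 (limma adjusted p 0.631). None of the 4 Acta2 probes passed, and they split evenly in sign. WT replicate 4 was the lowest lung on the 3 dimmer probes, as it was for Myh11, Tagln and Cnn1, but not on the brightest.

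**Figure D2:**
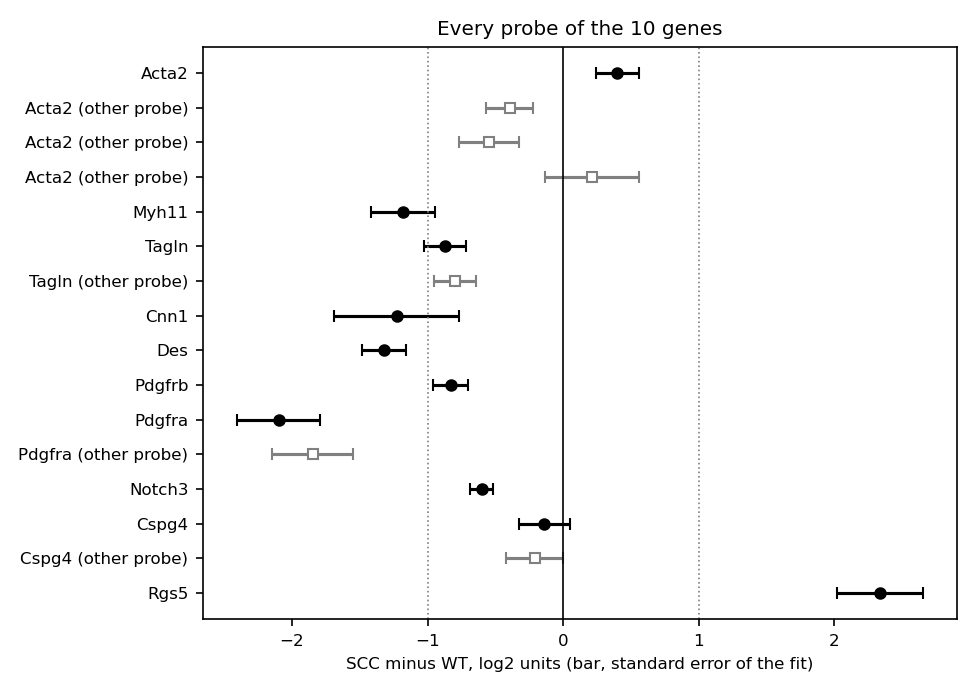
Difference SCC minus WT in log2 units (x axis) for all 16 probes of the 10 genes, with the standard error of the fit as a bar. Filled circles are the brightest probe of a gene, open squares its other probes, and dotted lines mark 2-fold. The Acta2 probes fall on both sides of 0, while the probes of Tagln, Pdgfra and Cspg4 keep 1 sign each.

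Des, which encodes desmin, was at 10.05, 10.59, 10.46, 10.23 and 10.25 in WT and at 8.79, 9.14, 8.55, 9.21 and 9.27 in SCC. All tumours were well below all lungs. Desmin transcript fell by 1.32 (SE 0.16, 2.50-fold, limma adjusted p 0.000162, exact permutation p 0.00794), from 10.31 ± 0.21 to 8.99 ± 0.31 (SD, n = 5 each). The probe was spotted 10 times, with an SD between spots of 0.060 to 0.10 on an array.

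Desmin is also a heart muscle protein, and in mice heart muscle cells extend along the pulmonary veins. A list of 6 cardiac muscle genes (Myh6, Actc1, Tnnt2, Myl7, Tnni3 and Ryr2) was therefore read on the same arrays. Their mean log2 signal was 10.41, 13.56, 12.62, 11.91 and 12.18 in WT and 9.12, 10.18, 8.31, 9.04 and 9.38 in SCC. All 6 were called lower in SCC, against 13.4% of all genes, with a median difference of -2.82, and no array lacked a clear signal for any of them. The 5 lungs had the same order in Des as in the cardiac genes, with WT replicate 1 lowest and WT replicate 2 highest. The tumours did not keep to 1 order. SCC replicate 3 was lowest in both, but SCC replicate 2 was highest in the cardiac genes and below SCC replicates 4 and 5 in Des. The order of the lungs was also that of the mean of 6 skeletal muscle genes, at 7.33 on WT replicate 1 and 9.56 on WT replicate 2, so it was not particular to the cardiac genes. The part of heart or skeletal muscle in the Des difference was not tested. For Myh11, Tagln and Cnn1 the lowest lung was WT replicate 4, and in the cardiac genes it was WT replicate 1. The part of heart muscle in the differences of Myh11, Tagln and Cnn1 was not tested either.

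**Figure D3:**
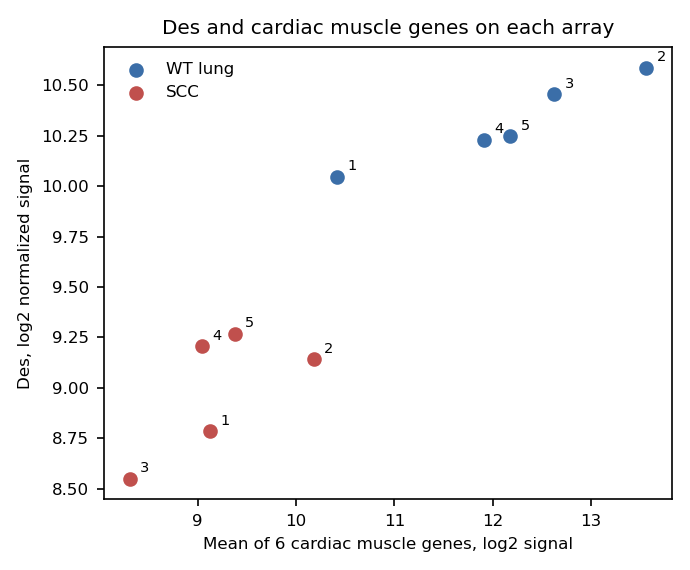
Log2 normalized signal of Des (y axis) against the mean log2 signal of 6 cardiac muscle genes (x axis) on the 5 WT lung arrays (blue) and the 5 SCC arrays (red), with replicate numbers. The lungs run in 1 order on both axes, from WT replicate 1 at 10.05 to WT replicate 2 at 10.59 in Des.

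Pdgfrb, the receptor through which PDGF-B recruits pericytes to vessels, was at 13.31, 13.46, 13.70, 13.56 and 13.13 in WT and at 12.55, 12.89, 12.55, 12.45 and 12.57 in SCC. The groups did not overlap, and 4 of the tumours were nearly level with each other. Pdgfrb fell by 0.83 (SE 0.13, 1.78-fold, limma adjusted p 0.000609, exact permutation p 0.00794), under the 2-fold needed for a call.

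Pdgfra, the receptor for PDGF-A, had the largest fall of the 10 genes. It was at 13.79, 13.47, 14.03, 13.86 and 13.83 in WT and at 11.67, 12.91, 11.09, 11.34 and 11.48 in SCC. No tumour reached the lungs, and SCC replicate 2 was the closest. From 13.80 ± 0.20 to 11.70 ± 0.71 (SD, n = 5 each), Pdgfra fell by 2.10 (SE 0.31, 4.28-fold, limma adjusted p 0.00041, exact permutation p 0.00794). A dimmer probe fell by 1.85 (limma adjusted p 0.000768), and it was well above background on 4 of the 5 SCC arrays.

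The fibroblast markers did not move as one. The mean log2 signal of Col1a1, Col1a2, Col3a1, Dcn, Lum, Tcf21 and Npnt was 12.93 to 13.19 in WT and 11.46 to 12.60 in SCC. SCC replicate 2 was the highest tumour and SCC replicate 3 the lowest in both the list and Pdgfra. They were also the highest and lowest in the cardiac muscle mean and in the endothelial, alveolar, and PDGF and Notch ligand means of the lists below. This order was therefore not particular to fibroblast genes. Of the 7 fibroblast genes, 4 were called lower (Dcn, Lum, Tcf21 and Npnt) and none was called higher, against 13.4% and 11.6% of all genes. Col1a1 and Col3a1 rose by 0.66 and 0.53 (limma adjusted p 0.00581 and 0.0062), under 2-fold. Col1a2 differed by -0.25 (limma adjusted p 0.0892). The part of fibroblasts in the Pdgfra difference was not tested.

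Notch3, the Notch receptor of arterial smooth muscle and pericytes, was at 12.94, 12.87, 13.06, 12.82 and 12.92 in WT and at 12.35, 12.39, 12.34, 12.12 and 12.40 in SCC. Its arrays lay close together within each group and clearly apart between groups. Notch3 fell by 0.60 (SE 0.088, 1.52-fold, limma adjusted p 0.000414, exact permutation p 0.00794), the smallest difference among the genes that passed the adjusted p.

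Cspg4, the NG2 proteoglycan of pericytes, was at 10.87, 10.81, 10.83, 10.90 and 10.84 in WT and at 10.56, 10.06, 10.87, 11.22 and 10.86 in SCC. The lungs were nearly identical, and the tumours lay on both sides of them. At -0.14 (SE 0.19, limma adjusted p 0.558), the difference was within the spread of the tumours, and its exact permutation p was 0.667. It changed sign without SCC replicate 2 (0.024, limma adjusted p 0.876). A dimmer probe differed by -0.21 (limma adjusted p 0.419).

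Rgs5, a regulator that shortens G protein signalling and is widely used as a pericyte marker, went the other way. It was at 9.21, 9.24, 8.99, 8.12 and 8.01 in WT and at 11.23, 10.68, 11.65, 10.46 and 11.22 in SCC. The lowest tumour was above the highest lung by more than 1 unit. Rgs5 rose by 2.33 (SE 0.32, 5.04-fold, limma adjusted p 0.000273, exact permutation p 0.00794), from 8.71 ± 0.60 to 11.05 ± 0.48 (SD, n = 5 each). It had 1 probe, so no second probe bears on it.

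The arrays lay on 3 slides. Slide 1 held 4 lungs (WT replicates 1 to 4), slide 2 held 1 lung (WT replicate 5) beside 3 tumours (SCC replicates 1 to 3), and slide 3 held the last 2 tumours, so slide and group were largely the same split. Within slide 2 all 10 genes kept their direction. There Myh11 differed by -1.75, Tagln by -1.06, Des by -1.42 and Rgs5 by 3.18, and with slide as a fixed block their limma adjusted p was 0.0167, 0.0484, 0.0193 and 0.0124. Tagln, at over 2-fold here, was then called as well. Pdgfra was at -1.93, Notch3 at -0.56, Cnn1 at -2.14 and Pdgfrb at -0.47 (limma adjusted p 0.0678, 0.0735, 0.138 and 0.187), and Acta2 was at 0.47 and Cspg4 at -0.35 (limma adjusted p 0.285 and 0.467). This fit compares 1 lung with 3 tumours and assumes that the lone lung varies like the arrays of the other slides, so its p-values rest on WT replicate 5.

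Whether the genes of a pair moved by different amounts was tested for 7 pairs, as the difference between both genes' log2 signals on each array. The test was an exact two-sided permutation with Benjamini-Hochberg adjustment over the 7. The pairs were chosen with earlier results of these data known, and the p-values do not allow for that choice. Rgs5 moved apart from Cspg4 by 2.47 (SE 0.40, exact permutation p 0.00794, adjusted 0.0185). Pdgfra fell by more than Pdgfrb, with a difference of -1.27 (SE 0.27, exact permutation p 0.0159, adjusted 0.0278). The brightest Acta2 probe moved apart from Myh11 by 1.58 (SE 0.30) and from Pdgfrb by 1.23 (SE 0.23), each with an exact permutation p of 0.00794 and 0.0185 adjusted. These Acta2 results kept their sign but did not pass the adjusted p with the next 2 Acta2 probes by brightness, which were put in its place after the probes were seen to disagree. Their differences from Myh11 were 0.79 and 0.64 (exact permutation p 0.0159 and 0.0317, adjusted over these 4 tests 0.0634 for both). From Pdgfrb they were 0.44 and 0.28 (exact permutation p 0.0952 and 0.381, adjusted 0.127 and 0.381).

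The other 3 pairs did not pass. Des and Myh11 differed in their change by -0.14 (SE 0.17, exact permutation p 0.429, adjusted 0.429). Tagln and Cnn1 differed by 0.36 (SE 0.38, exact permutation p 0.365, adjusted 0.426), and Notch3 and Pdgfrb by 0.23 (SE 0.11, exact permutation p 0.0794, adjusted 0.111).

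The genes nearest in pattern to Myh11 and to Pdgfrb were ranked among 14109 genes well above background on all arrays, by the SD over the 10 arrays of the log2 difference to each. For Myh11 they were Grk4 (SD 0.20), Plb1 (0.26), Des (0.27), Stk36 (0.27) and Ccdc15 (0.28). Of the other smooth muscle and pericyte genes, Des ranked 3, Tagln ranked 347 (SD 0.42), Pdgfrb 1016 (0.48), Notch3 1050 (0.49), Cnn1 2570 (0.59), Cspg4 5074 (0.70), Pdgfra 6140 (0.75), Acta2 9758 (0.94) and Rgs5 13684 (1.98). For Pdgfrb they were Csgalnact2 (SD 0.056), Kctd10 (0.095), Ubr1 (0.10), Tanc1 (0.10) and Rab23 (0.11), and Notch3 was the nearest of the other 9 genes, at rank 321 (0.21). The arrays share the split into 2 groups, so any gene with a like difference ranks high.

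A wider list of 50 genes of the vessel and airway wall was read in the same fit. Of these 48 were tested. Kcnma1 was not, being too dim, and Ndufa4l2 was paired with no probe. In SCC, 22 of the 48 were called lower and none was called higher, where 13.4% of all genes were called lower and 11.6% higher. By the adjusted p alone 32 of the 48 fell and 6 rose, against 28.4% and 25.5% of all genes. Their median difference was -0.93. These shares of all genes are also the ones to set beside the counts in its 5 groups.

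Among 16 further genes of the contractile apparatus, 6 were called lower (Synm, Ppp1r14a, Synpo2, Mylk, Myl9 and Cnn2) and the median difference was -0.73. Synm, an intermediate filament protein that pairs with desmin, fell by 3.48 (limma adjusted p 0.000155). Ppp1r14a (CPI-17), which inhibits myosin phosphatase, fell by 2.88 (limma adjusted p 2.42e-05), and the actin-binding Synpo2 fell by 2.21 (limma adjusted p 0.0214). The size of the Synpo2 fall rests in part on SCC replicate 5, at 3.30 against 6.15 to 7.26 on the other tumours. Signals of Synm were 13.09 to 13.93 in WT and 8.94 to 11.70 in SCC, without overlap. Actn1, chosen after its value was seen, was the only one of the 16 to rise by the adjusted p, by 0.85 (limma adjusted p 0.00388).

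Of 9 ion channels and signalling genes of smooth muscle tested, 7 were called lower, and their median difference of -2.28 was the lowest of the 5 wider lists. Pln (phospholamban), a brake on the calcium pump that heart muscle also makes, was among the 7 but entered the test only through the lungs. It was at 5.98 to 10.48 in WT and well above background on only 1 SCC array, at 6.55, so the groups overlapped and the size of its fall was not measured. With the test limited to probes well above background on all arrays, which leaves Pln out, 21 genes of the wider list were called lower. The angiotensin receptor Agtr1a fell by 3.08 (limma adjusted p 9.09e-05), and Gucy1a1, a subunit of the nitric oxide receptor, fell by 2.67 (limma adjusted p 4.75e-05). The other 4 were Prkg1, Gucy1b1, Pde5a and Ednra.

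Of 7 transcription factors and coactivators, only Ebf1, a factor of pericytes and B cells, was called, and it fell by 2.11 (limma adjusted p 0.0011). The list's median difference was -0.23. The values of Srf and Myocd, the serum response factor and its smooth muscle coactivator, were looked at for their role after the results were known. Srf differed by -0.23 (limma adjusted p 0.078), and Myocd, well above background on 4 of the 5 SCC arrays, fell by 0.68 (limma adjusted p 0.0324). The coactivators Mrtfa and Mrtfb, looked at afterwards in the same way, were at 0.0020 (limma adjusted p 0.992) and 0.56 (limma adjusted p 0.0156). Heyl, likewise named after its value was seen, fell by 0.38 (limma adjusted p 0.025), under 2-fold. Foxs1, also chosen after its value was seen, rose by 0.76 (limma adjusted p 0.000397) without overlap of the groups.

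Of 9 other pericyte genes tested, 3 were called lower and none higher, with a median of -0.77. The matrix protein gene Vtn fell by 2.31 (limma adjusted p 1.87e-05), the cation channel gene Trpc6 fell by 1.52 (limma adjusted p 0.000127) and Higd1b fell by 1.33 (limma adjusted p 0.000262). Kcnj8 and Abcc9, whose products form the potassium channel of pericytes, were at -0.42 (limma adjusted p 0.025) and -0.36 (limma adjusted p 0.27). Rgs4, another RGS gene, rose by 0.40 (limma adjusted p 0.0482), and the peptidase gene Anpep by 1.00 (limma adjusted p 0.0141), just under 2-fold. Cox4i2 fell by 0.99 (limma adjusted p 0.00158) and Mcam fell by 0.77 (limma adjusted p 0.00225), both without overlap of the groups and under 2-fold. These last 6 were named after their values were seen.

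Of 7 PDGF and Notch ligands, 5 were called lower and none higher, against 13.4% and 11.6% of all genes, with a median of -1.16. Pdgfb, the main ligand of Pdgfrb, fell by 1.37 (limma adjusted p 1.85e-05), Pdgfd fell by 1.94 (limma adjusted p 0.00665) and the endothelial Notch ligand Dll4 fell by 1.67 (limma adjusted p 1.02e-05). The other 2 were Dll1 and Pdgfa. Pdgfc and Jag1 were named after their values were seen. Pdgfc rose by 0.65 (limma adjusted p 0.00275), and Jag1 differed by 0.29 (limma adjusted p 0.106).

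**Figure D4:**
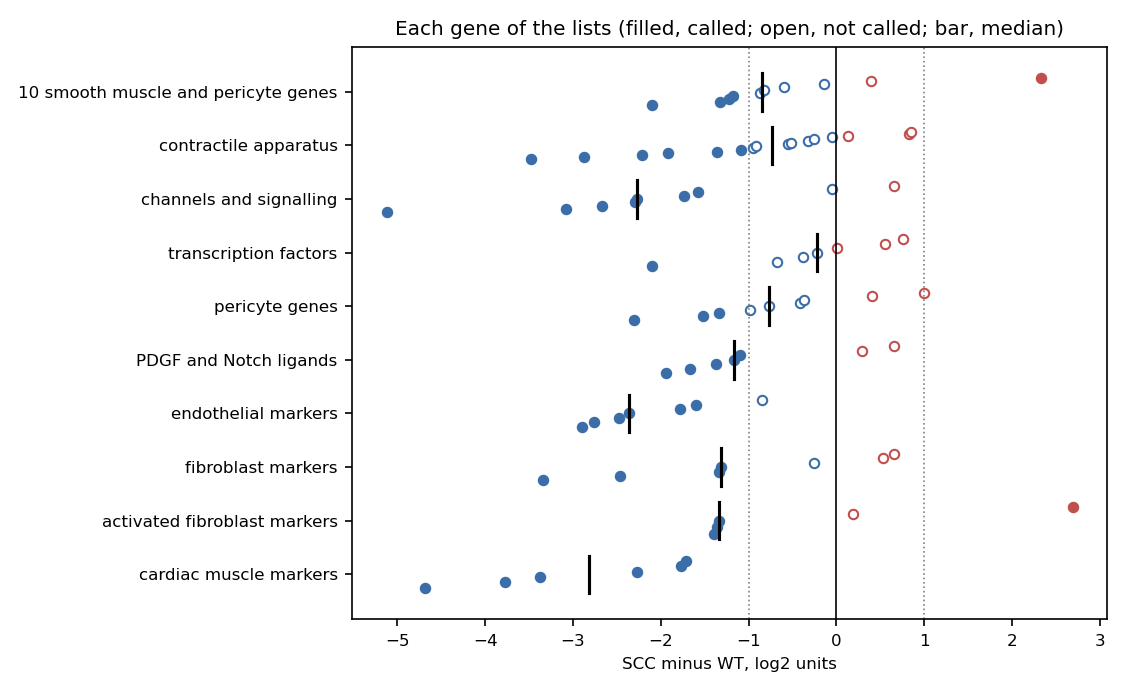
Difference SCC minus WT in log2 units (x axis) for each tested gene of 10 lists (y axis). Filled points were called, open points were not, black bars are list medians and dotted lines mark 2-fold. The median is -0.85 for the 10 smooth muscle and pericyte genes, -2.28 for channels and signalling, -2.37 for endothelial and -2.82 for cardiac muscle markers.

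Markers of other cells moved as well. Of 7 endothelial genes, 6 were called lower, with a median difference of -2.37, and their mean log2 signal was 14.06 to 14.31 in WT and 11.73 to 12.78 in SCC. SCC replicate 2 was the highest tumour in this list. It was also the highest in Tagln, Pdgfrb and Pdgfra, but not in the other 7 genes by their brightest probes, and it was the lowest in Cspg4 and on the brightest Acta2 probe, though the highest on another Acta2 probe. Of 5 activated fibroblast genes, Tnc was called higher and Postn, Thy1 and Col12a1 lower, and the list's mean signal was 9.76 to 10.41 in WT and 9.34 to 10.07 in SCC. Another Col12a1 probe did not keep this direction and was not called. Of 6 skeletal muscle genes tested, 2 (Myh8 and Myh4) were called lower and none higher, and Myh4, Myh2 and Tnnt3 were tested only through the lungs, being well above background on 3, 2 and 3 SCC arrays. Of 4 alveolar epithelial genes, 1 (Ager) was called lower and none higher. Over all genes, as above, 13.4% were called lower and 11.6% higher. The part of these cells in the differences of the 10 genes was not tested.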

How the data were processed

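Sample titles gave the groups and replicate numbers. Per the labels, the authors labelled total RNA with Cy3 and used Agilent Feature Extraction 12, whose deposited output gives each spot's background-subtracted processed intensity. A quantile-normalized log2 matrix deposited by the authors matched the values used here (r at least 0.9999 on every array), served to pick the brightest probe of a gene, and was otherwise an alternative.

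Spots that were controls or outliers were removed, log2 intensity was averaged per probe, and 41174 probes were quantile-normalized. A probe counted as well above background where at least 0.5 of its spots were so flagged, and entered the test if at least 4 of 5 arrays of either group met this (30374 probes). SCC was compared with WT in limma 3.58.1 under R 4.3.3 (lmFit, eBayes, two-sided, no covariates, Benjamini-Hochberg over tested probes), in place of the study's analysis of variance. The fit was tested on simulated data. Precision is limited by the number of arrays. Accessions were paired with symbols through RefSeq genes of GRCm38.p6 (28223 probes, 68.5%). Scanner coordinates are on another build and are not given. The normexp alternative used median spot and background intensity, since the deposited files used here hold no mean signal. Named genes were the 10 genes, the called genes of each wider list with the 3 largest differences in either direction, and the 5 nearest patterns. The genes, lists and pairs were chosen with earlier results of these data known. Alternatives covered the background correction, scaling, filters, slide and replicate blocks, array weights, the methods' t-test, other probes and each array left out.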

Additional observations from a re-analysis of the deposited data

Results flagged for a closer look

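Each of 22 measures (the 10 genes and 12 list means) was examined in both groups, 44 groups of 5 arrays, for an array whose gap to its nearest neighbour exceeded 0.71 of the group's range, the critical value of Dixon's test. Chance flags about 1 in 20 such groups. There were 7 such cases. In Pdgfrb, SCC replicate 2 was high at 12.89 against 12.45 to 12.57 on the other tumours (ratio 0.731). In Notch3, SCC replicate 4 was low at 12.12 against 12.34 to 12.40 (ratio 0.798).

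In the mean of the wider pericyte genes, WT replicate 5 was low at 10.28 against 10.41 to 10.46 (ratio 0.726), and SCC replicate 5 was low at 9.47 against 9.72 to 9.78 (ratio 0.815). SCC replicate 2 was high in the endothelial mean, at 12.78 against 11.73 to 12.01 (ratio 0.738), and low in the squamous mean, at 14.02 against 15.86 to 16.16 (ratio 0.863). WT replicate 2 was low in the mean of 3 alveolar genes, at 15.58 against 15.65 to 15.68 (ratio 0.718). Leaving out the array concerned, Pdgfrb differed by -0.90 and Notch3 by -0.55.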

How the results depend on the processing

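Myh11, Tagln, Des, Pdgfrb, Notch3 and Rgs5 kept their direction under every alternative run, as did Pdgfra and Cnn1. Pdgfra lost its call with slide as a fixed block, and Cnn1 lost its call in 13 alternatives. The sign of Cspg4 changed without SCC replicate 2 (0.024, with a range of -0.27 to 0.024 over the sets with 1 array left out) and without both SCC replicates 2 and 5 (0.030), and the sign of Acta2 changed with 2 of its other probes (-0.55 and -0.39). The brightest Acta2 probe passed the adjusted p, under 2-fold, with normexp (limma adjusted p 0.042), with array weights (0.00987), without SCC replicate 2 (0.00942) and without both SCC replicates 2 and 5 (0.00646). The causes were not tested. The 5 calls among the 10 genes became 8 without the 2-fold requirement and 4 with slide as a fixed block, where Pdgfra and Cnn1 were lost and Tagln was gained (-1.06, limma adjusted p 0.0484). The wider list's 22 calls became 38 and 14. Over all tested probes 6954 calls became 14878 without the 2-fold requirement, 2989 with slide as a fixed block and 3969 with normexp. Scaling to the 75th percentile moved the median over probes by 0.12, from -0.090 to 0.032, and the share of higher calls from 43.3% to 53.2%, and turned no sign among the 10 genes. With the replicate number as a block, 4 of the 10 genes and 6571 probes were called, Cnn1 being lost (limma adjusted p 0.126). Deviations of same-numbered WT and SCC arrays correlated at -0.099 to 0.0090, so the numbers were not taken to pair the samples.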

Other observations

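The patterns nearest to Rgs5 were looked up after its values were seen. Over the 10 arrays the smallest SD of the log2 difference to Rgs5 was found for Mlph (0.39), a melanophilin gene of organelle transport, followed by Chdh (0.41), Ptges (0.41), which encodes a prostaglandin E synthase, the cytokinesis gene Anln (0.42) and Chil1 (0.42). All 5 rose in SCC, by 2.42, 2.36, 2.11, 2.41 and 2.00 log2 units (limma adjusted p at most 9.75e-05). The nearest of the other 9 smooth muscle and pericyte genes was Acta2, at rank 3102 of 14109. As above, any gene with a like difference between the groups ranks high by this measure.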
